A study of Mus musculus with 3 samples.

Results

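The colony-stimulating factors and their receptors were followed across the cells of arthritic mouse knee synovium, the tissue that lines the joint. The set was chosen by name and holds 8 of the 24357 genes in the count tables: the ligand genes Csf1, Il34, Csf2 and Csf3 and the receptor genes Csf1r, Csf2ra, Csf2rb and Csf3r. All 8 were found in all 3 libraries. Each library pooled the knee synovium of 2 mice, so that 6 mice entered the study. They were female wild-type C57BL/6 mice, 8 weeks old, given 100 µg of type II collagen on day 0, 1 mg of antibodies against type II collagen on day 21 and lipopolysaccharide on day 22. The synovium was taken at the effector phase. There was 1 group and no untreated group, so no value below is a change with arthritis. All comparisons are between cell classes within the same joints, with the 3 libraries as replicates.

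Csf1 encodes M-CSF, the factor on which most macrophages and osteoclasts depend, and Il34 encodes interleukin-34. Both proteins bind the receptor tyrosine kinase encoded by Csf1r. Csf2 encodes GM-CSF, whose receptor pairs a binding chain, Csf2ra, with the signalling chain Csf2rb that is shared with the receptors for interleukin-3 and interleukin-5. Csf3 encodes G-CSF, which drives the production and release of neutrophils through Csf3r. GM-CSF and G-CSF are both known for their part in inflammatory arthritis, and M-CSF for its part in the formation of osteoclasts.

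The libraries held 11602 to 15263 cell barcodes and 99782608 to 116125707 unique molecular identifiers (UMIs, each a counted mRNA molecule), with a median of 4702 to 5267 UMIs per barcode. Of these barcodes 36875 were analysed and sorted into marker-defined classes. The largest were neutrophil-like (11859 cells), monocyte/macrophage-like (11371) and fibroblast-like cells (8416), and the joint lining was represented by 1441 lining fibroblast-like cells. Immature neutrophil-like cells were unevenly spread, with 119, 481 and 69 cells in replicates 1, 2 and 3. Levels are given in CPM, the UMIs of a gene for every 1000000 UMIs of all genes in a class and library, for the 21 classes with at least 20 cells in every library. RNA released by broken cells enters every droplet, so each class other than neutrophils also has a free RNA limit. It is the level that such RNA could reach at most if all neutrophil S100a8 and S100a9 UMIs in the class were free RNA. The limit takes free RNA to have the make-up of the whole library, summed over its barcodes. Free RNA of another make-up could exceed it, and the free RNA levels given for neutrophils rest on the same assumption. A gene's level at or near its limit is read here as background.

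Upstream sequences of the genes are shown for 3 members whose transcripts lay mostly in myeloid cells, the first of which was shared with stroma. They are from RefSeq on GRCm38.p6, which held an entry for 4 of the 8 members, and run from 170 bases before the annotated start to the base before it, 5′ to 3′ on the gene's strand. Capitals mark the letters of 2 motifs on either strand: GAGGAA, a core of sites for the myeloid factor PU.1, and a simplified NF-κB site of GGGA, 4 bases of any kind and CC. Csf1 lies at chr3:107760470-107760639 on the minus strand, Csf3r at chr4:126024489-126024658 on the plus strand and Csf2ra at chr19:61228419-61228588 on the minus strand.
Csf1: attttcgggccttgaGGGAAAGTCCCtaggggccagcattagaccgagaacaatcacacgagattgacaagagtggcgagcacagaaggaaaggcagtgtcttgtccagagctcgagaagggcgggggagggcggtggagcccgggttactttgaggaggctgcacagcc
Csf3r: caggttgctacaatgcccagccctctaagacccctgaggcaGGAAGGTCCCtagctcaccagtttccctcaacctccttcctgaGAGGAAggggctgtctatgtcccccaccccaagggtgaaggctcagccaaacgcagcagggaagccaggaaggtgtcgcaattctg
Csf2ra: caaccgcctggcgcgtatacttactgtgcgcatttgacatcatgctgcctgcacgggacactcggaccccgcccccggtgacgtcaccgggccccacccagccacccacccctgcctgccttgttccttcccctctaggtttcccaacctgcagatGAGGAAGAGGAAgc
The stretch of Csf1 holds the NF-κB letters in 2 overlapping matches that read as 1 run, that of Csf3r holds 1 match of each motif, and that of Csf2ra holds 2 adjoining PU.1 cores. Stretches of this length hold GAGGAA in 16.2% and the NF-κB letters in 13.2% of the 32851 RefSeq promoters. A match describes the letters and was not tested as a binding site.

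Csf1 was highest in mature neutrophil-like cells, the cells that carry the G-CSF receptor. Their levels were 376, 316 and 490 CPM in replicates 1, 2 and 3, a mean of 394 ± 88.3 (SD, n = 3 libraries). The next class, pericyte/smooth muscle-like cells, had 57.1, 56.8 and 72.5 CPM. The 2 ranges did not overlap, and mature neutrophil-like cells stood 5.56 to 6.76 times above this second class in CPM in each library. CPM is a share of a class's own UMIs, and depth differed. The median was 1787 UMIs per cell in mature neutrophil-like, 8159 in pericyte/smooth muscle-like and 11487.5 in fibroblast-like cells. A higher CPM thus need not mean more Csf1 UMIs per cell. The free RNA level that fibroblast markers allow in mature neutrophil-like cells was 13.6 to 14.5 CPM of Csf1, and macrophage markers allow 14.98 to 17.3.

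**Figure D1:**
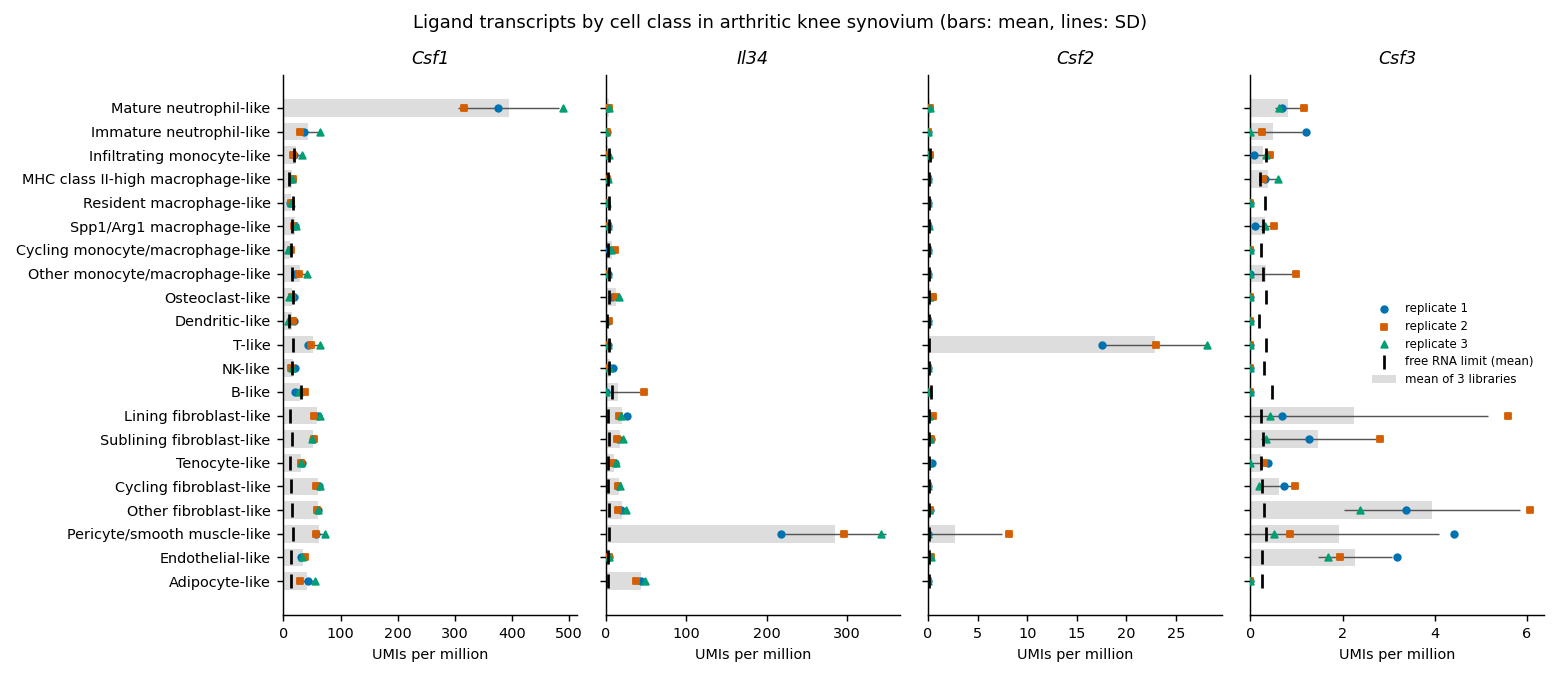
Levels of the 4 ligand genes in UMIs per 1000000 (CPM, horizontal axes, linear, each gene on its own scale) in 21 cell classes. Points are libraries, grey bars and lines the mean and SD of 3 libraries, and black ticks the mean free RNA limit (not defined for neutrophils). Csf1 peaks in mature neutrophil-like cells at 394 ± 88.3, Il34 in pericyte/smooth muscle-like cells at 285 ± 62.5 and Csf2 in T-like cells at 22.9 ± 5.31, while Csf3 stays below 7 in every class and library.

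Behind neutrophils, Csf1 formed a broad plateau, mostly of stromal classes but with T-like cells at the same level. Cycling, other and lining fibroblast-like cells had 61.4 ± 4.14, 60.5 ± 0.86 and 59.6 ± 4.87 CPM (SD, n = 3 libraries). Sublining fibroblast-like cells had 51.5 ± 1.71 and T-like cells 52.0 ± 11.0. The ranges of neighbouring classes overlapped throughout this plateau, which lay above its free RNA limits (means of 11.4 to 17.6 CPM) in 3 of 3 libraries. Endothelial-like cells were lower at 33.6 ± 3.37, and monocyte/macrophage-like cells as a class had 18.2, 17.5 and 24.1. Combining level and cell number, neutrophil-like cells held 47.3 ± 4.9% of all Csf1 UMIs in analysed cells, as all such shares are given here, and fibroblast-like cells 33.7 ± 4.3%.

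Both leading sources exceeded macrophages in the test over all genes. Csf1 was 4.47 ± 0.11 log2 units higher in neutrophil-like than in monocyte/macrophage-like cells (SE, edgeR adjusted p = 6.7e-10, higher in 3 of 3 libraries). The difference between fibroblast-like and monocyte/macrophage-like cells was 1.61 ± 0.08 log2 units (adjusted p = 9.9e-09, 3 of 3 libraries). Log2 differences are on the TMM scale of edgeR and need not equal a ratio of CPM. In these 2 comparisons 44.2% and 42.6% of all genes tested were called, meaning an adjusted p under 0.05 and an absolute log2 difference of at least 1. The difference between lining and sublining fibroblast-like cells, 0.18 ± 0.09, was not called (adjusted p = 0.11), against 13.8% of genes called there (4.4% higher, 9.43% lower). Fibroblast-like cells were 1.00 ± 0.09 above endothelial-like cells in 3 of 3 libraries (adjusted p = 4.4e-07), a value just under the cutoff of 1 before rounding. There 28.9% of genes were called, 16.6% higher and 12.3% lower.

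Csf1 was higher in mature than in immature neutrophil-like cells. Immature neutrophil-like cells had 36.3, 29.0 and 64.1 CPM, all below the lowest mature value of 316. The test gave -3.18 ± 0.19 log2 units for immature over mature cells (SE, adjusted p = 2.3e-28, lower in 3 of 3 libraries; 20.6% of genes called, 8.22% higher and 12.4% lower). The 27 neutrophil-like sub-clusters with at least 20 cells in every library, formed without using any member gene, ranged from 14.2 ± 2.2 to 970 ± 218 CPM of Csf1 (SD, n = 3). The lowest, led by Prok2, Retnlg, BC100530 and Ifitm6, had 1 Csf1 UMI in each library and lay at the free RNA level given above, so it is read as background. The highest was led by Slc6a13, Mirt1, Ccl4 and Slc7a11. Csf1 was 361.7 to 650 in the 10 sub-clusters with the chemokine receptor gene Cxcr2 but not Retnlg, a gene of freshly released neutrophils, among their 10 leading genes, and 14.2 to 410 in the 10 with Retnlg but not Cxcr2. The sub-cluster of highest Csf1 had neither Cxcr2 nor Retnlg among its 10 leading genes, so it lies outside both groups. The median depth of the sub-clusters spanned 1358 to 4859 UMIs per cell, and its part in the order of Csf1 was not tested.

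**Figure D2:**
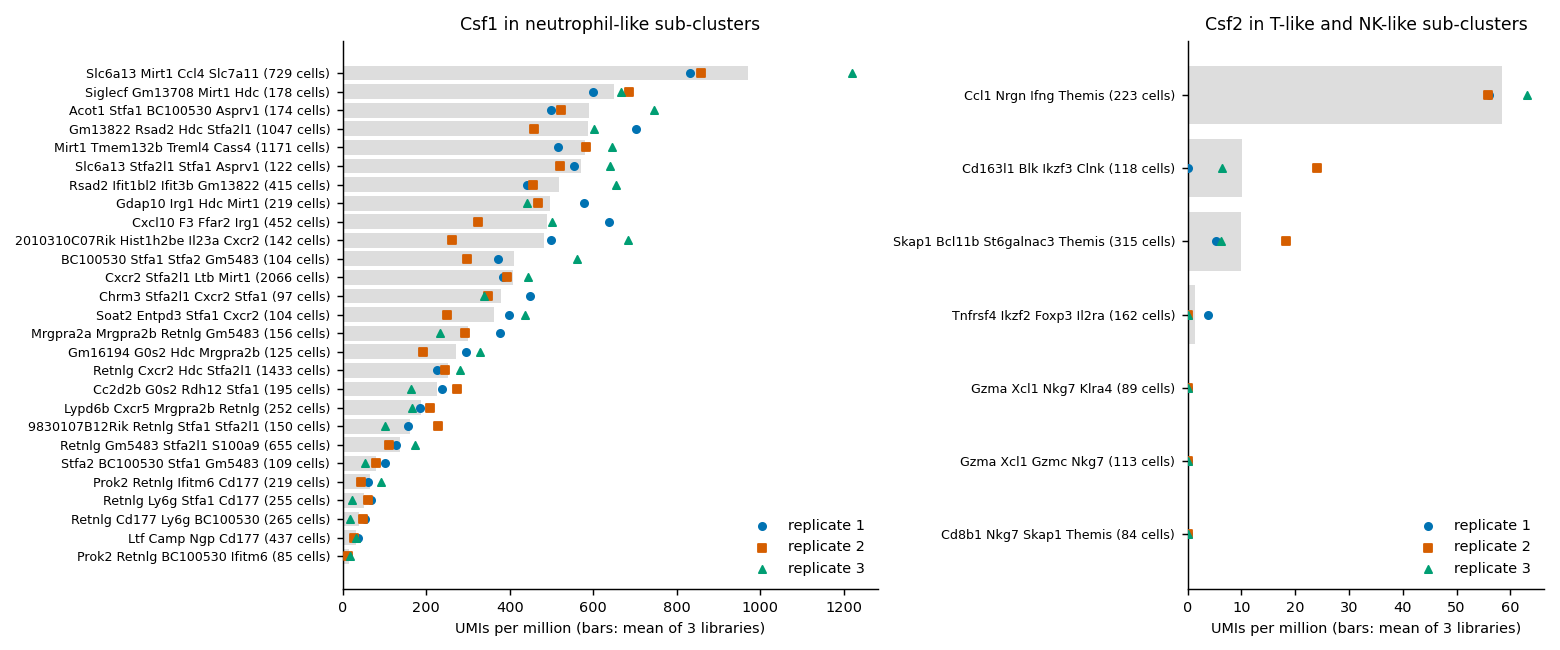
Left, Csf1 in 27 neutrophil-like sub-clusters, and right, Csf2 in 7 T-like and NK-like sub-clusters, in CPM (linear axes), each named by its 4 leading genes with its number of cells. Bars are means and points the 3 libraries. Csf1 runs from 14.2, at the free RNA level, to 970, and Csf2 reaches 58.4 in the sub-cluster led by Ccl1 and Ifng and is at 0 in the Cd8b1-led and both NK-like ones.

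Il34, the second ligand of the M-CSF receptor, lay elsewhere. Pericyte/smooth muscle-like cells, which wrap small vessels, had 218, 296 and 342 CPM, a mean of 285 ± 62.5 (SD, n = 3 libraries). Adipocyte-like cells followed at 44.2, 37.4 and 48.7, then lining (20.5 ± 4.93), other (20.2 ± 5.07) and sublining fibroblast-like cells (17.3 ± 3.69). The first 2 steps of this order were free of overlap and the fibroblast classes overlapped one another. The free RNA limit was 4.2 CPM in pericyte/smooth muscle-like cells, of which 76.5% had at least 1 Il34 UMI, against 1.9% of monocyte/macrophage-like cells.

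All 4 pericyte/smooth muscle-like sub-clusters carried Il34. The highest, led by Prkg1, Notch3, Rgs5 and Gucy1a3, had 515 ± 203 CPM of Il34 and the lowest, led by Ccl11 and Agt, 172 ± 30.5. The contractile sub-cluster led by Tagln, Myl9 and Myh11 had 196 ± 44.6. Although pericyte/smooth muscle-like cells numbered 679, they held 38.7 ± 6.6% of all Il34 UMIs, close to the 45.8 ± 8.1% held by the 8416 fibroblast-like cells.

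Il34 was called higher in fibroblast-like than in monocyte/macrophage-like cells by 2.89 ± 0.13 log2 units (SE, edgeR adjusted p = 2.5e-09) and than in endothelial-like cells by 2.44 ± 0.13 (adjusted p = 2.9e-09), each in 3 of 3 libraries. Osteoclast-like cells, the bone-resorbing cells, had 7.54, 13.01 and 15.99 CPM against 2.1, 2.76 and 3.33 in monocyte/macrophage-like cells. That difference of 2.13 ± 0.28 was called (adjusted p = 2.4e-10; 29% of genes called, 11.3% higher and 17.8% lower), on 67 Il34 UMIs in 321 cells. Their free RNA limit averaged 3.87 CPM and was exceeded in 3 of 3 libraries.

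Csf1r, the receptor for both ligands, marked the mononuclear phagocytes. Resident macrophage-like cells had 609, 717 and 608 CPM (645 ± 62.5, SD, n = 3), MHC class II-high macrophage-like cells 585 ± 21.0, osteoclast-like cells 573 ± 68.0 and infiltrating monocyte-like cells 509.6 ± 21.1. The remaining 3 monocyte/macrophage-like classes lay between 439.8 and 442.5 and overlapped. A wide gap separated these 7 classes from dendritic-like cells at 131 ± 4.15. Fibroblast-like cells were near their free RNA limits, at 40.3, 29.97 and 39.1, with limits of 38.8, 26.3 and 49.4.

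Infiltrating monocyte-like cells were tested for Csf1r against the other non-cycling macrophage-like classes pooled, which were not tested singly. The difference was not called, at -0.02 ± 0.06 log2 units (SE, adjusted p = 0.79; 6.72% of genes called, 3.23% higher and 3.49% lower). Osteoclast-like cells were 0.21 ± 0.08 above monocyte/macrophage-like cells in 3 of 3 libraries, with adjusted p = 0.020 but under the fold cutoff. Dendritic-like cells were 2.01 ± 0.15 lower, at -2.01 (adjusted p = 1.2e-39; 12% of genes called, 5.1% higher and 6.93% lower). Only 127 dendritic-like cells passed the marker gate.

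Mature neutrophil-like cells also carried Csf1r UMIs, at 117, 92.6 and 125 CPM. Fibroblast markers allow a free RNA level of 33.8 to 44.6 and macrophage markers 37.3 to 49.98 there, so the measured values lay above both in all 3 libraries. Neutrophil-like cells as a class were 1.89 log2 units below monocyte/macrophage-like cells, at -1.89 ± 0.10 (SE, adjusted p = 6.4e-08). They held 5.4 ± 1.6% of the Csf1r UMIs, and monocyte/macrophage-like cells 74.5 ± 3.5%. With Csf1 and Csf1r both found there, mature neutrophil-like cells were the highest class for the ligand and ninth for its receptor.

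**Figure D3:**
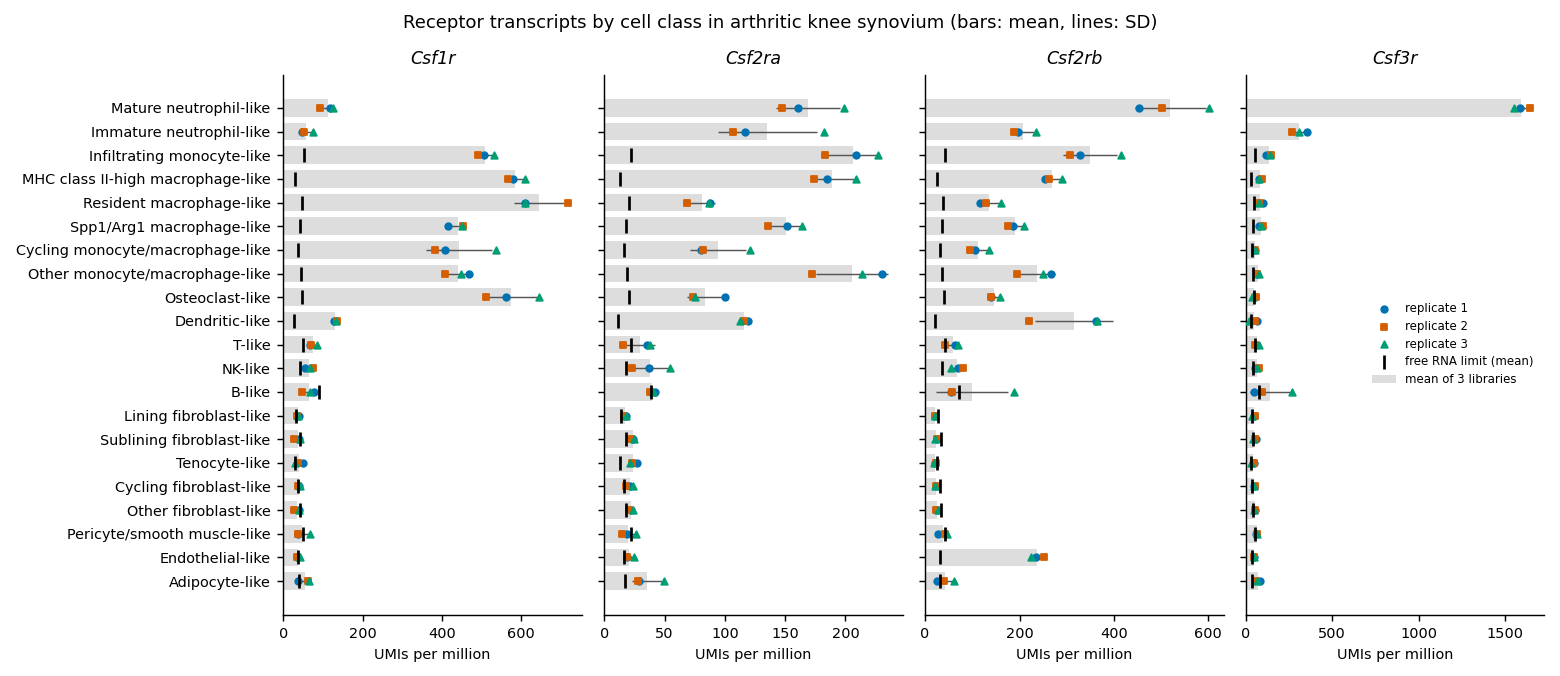
Levels of the 4 receptor genes in CPM (linear axes, each gene on its own scale) in the same 21 classes, drawn as for the ligands. Csf1r is high in 7 mononuclear phagocyte classes, Csf2ra and Csf2rb in myeloid classes, Csf2rb also in endothelial-like cells at 237 ± 13.6, and Csf3r in mature neutrophil-like cells at 1595 ± 47.6.

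Csf2 was scarce and found mostly in T-like cells. The libraries held 42, 70 and 66 Csf2 UMIs in all, of which 41, 66 and 49 were in analysed cells. T-like cells had 17.6, 23.0 and 28.2 CPM (22.9 ± 5.31, SD, n = 3), from 99 UMIs in 37 of 803 cells. In each library 1 cell held 12, 12 and 19 of the 32, 29 and 38 UMIs, and without these cells' UMIs the level was 12.9 ± 1.66. The T-like class rested on 5 markers, Cd3e, Cd3d, Cd3g, Cd28 and Lck. No UMI was found in 167 NK-like cells, which allows a share of up to 1.8% of cells with a UMI. T-like and NK-like cells together held 78.0%, 43.9% and 77.6% of the Csf2 UMIs in analysed cells of replicates 1, 2 and 3.

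In replicate 2, pericyte/smooth muscle-like cells held a further 28.8% of the Csf2 UMIs in analysed cells, and 18 of those 19 UMIs came from 1 cell. No Csf2 UMI was found in this class in replicates 1 and 3. Monocyte/macrophage-like cells had 1, 2 and 2 UMIs. Per UMI counted, T/NK-like cells were 319 times above them, with an exact 95% interval of 132 to 1005 that covers counting error only. The interval takes every UMI as independent, which UMIs of 1 cell are not, so it is too narrow. The test called the difference (edgeR adjusted p = 5.3e-13, higher in 3 of 3 libraries; 30% of genes called, 15.2% higher and 14.7% lower).

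The T-like cells were not alike. The sub-cluster led by Ccl1, Nrgn, Ifng and Themis (223 cells, counted before the marker gate) had 56.1, 55.9 and 63.2 CPM of Csf2 and held 78.8% of the T-like Csf2 UMIs. The share was 84.4%, 55.2% and 92.1% in replicates 1, 2 and 3. Within it 20 cells, or 9.0%, had a Csf2 UMI, with 78 UMIs in all. The cells of most Csf2 UMIs, with 12, 12 and 19 in replicates 1, 2 and 3, lay in this sub-cluster. No other T-like sub-cluster held that many in the same library. Its level and share thus rest in large part on 1 cell per library. The sub-cluster led by Skap1, Bcl11b, St6galnac3 and Themis (315 cells) had 14 UMIs in 10 cells, or 3.2%. It held 9.4%, 31.0% and 5.3% of the T-like Csf2 UMIs in replicates 1, 2 and 3. The sub-cluster led by the regulatory T cell genes Tnfrsf4, Ikzf2, Foxp3 and Il2ra (162 cells) had 2 Csf2 UMIs, and that led by Cd8b1 (84 cells) had none, which allows up to 3.57% of cells with a UMI and does not limit the share of cells that express the gene. The sub-cluster with Cd163l1, Blk and Il23r (118 cells), the gene pattern of interleukin-17-making γδ T cells, had 5 UMIs in 5 cells, or 4.2%. The same Ccl1-led sub-cluster was also highest of the 5 for Csf1, at 87.9 ± 13.9 CPM, and the Cd163l1-led one lowest at 6.4 ± 6.3.

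Csf2ra, the GM-CSF binding chain, spread over the myeloid classes with shallow steps. Infiltrating monocyte-like cells had 209, 183 and 227 CPM (206 ± 22.1, SD, n = 3), MHC class II-high macrophage-like cells 189 ± 17.8, mature neutrophil-like cells 169 ± 26.5 and Spp1/Arg1 macrophage-like cells 150.3 ± 14.1. Osteoclast-like (83.1 ± 14.7) and resident macrophage-like cells (81.0 ± 10.6) were the lowest of the phagocytes. All neighbours among these 10 classes overlapped in range until the step below resident macrophage-like cells. Neutrophil-like cells were not called against monocyte/macrophage-like cells, at 0.26 ± 0.08 log2 units (SE, adjusted p = 0.015), with a UMI level higher in 1 of 3 libraries. Osteoclast-like cells were called lower, at -1.05 ± 0.10 (adjusted p = 1.6e-15, lower in 3 of 3 libraries). That call was lost without replicate 3 (-0.96) and with doublets kept (-0.98).

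Csf2rb had a steeper order in CPM. Median depth was 1787 UMIs per cell in mature neutrophil-like and 5966 in infiltrating monocyte-like cells, so an order by UMIs per cell can differ. Mature neutrophil-like cells had 454, 501 and 602 CPM (519 ± 75.6), infiltrating monocyte-like cells 349.6 ± 57.3, dendritic-like cells 316 ± 82.5 and MHC class II-high macrophage-like cells 269 ± 18.7. Cycling monocyte/macrophage-like cells were lowest of the phagocytes at 112.5 ± 20.3. Csf2rb was called higher in neutrophil-like than monocyte/macrophage-like cells (1.25 ± 0.09 log2 units, SE, adjusted p = 4.6e-07) and lower in immature than mature neutrophil-like cells (-1.20 ± 0.16, adjusted p = 3.2e-10). The latter was -0.98, under the fold cutoff, with coarser clusters. Infiltrating monocyte-like cells were 0.62 ± 0.06 above other macrophage-like cells in 3 of 3 libraries (adjusted p = 6.3e-07), under the fold cutoff. Among sub-clusters, Csf2rb was highest in those led by the interferon-induced chemokine gene Cxcl10 in both lineages. The neutrophil-like one, led by Cxcl10 and F3, had 784 ± 34.2 CPM, and the monocyte-like one, led by Cxcl9 and Cxcl10, 523 ± 46.1.

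Endothelial-like cells carried the shared chain at a myeloid level, with Csf2ra low but above its free RNA limit in 3 of 3 libraries. Their Csf2rb level was 236, 252 and 225 CPM (237 ± 13.6, SD, n = 3), with at least 1 UMI in 79.97% of cells and a free RNA limit of 31.2. Their Csf2ra level was 18.6, 19.2 and 24.7 against limits of 14.7, 12.4 and 21.6 and fibroblast-like levels of 22.0, 19.9 and 22.8, a difference that was not called (0.30 ± 0.09 log2 units for fibroblast over endothelial, SE, adjusted p = 0.011). Csf2rb was 3.10 log2 units lower in fibroblast-like cells, at -3.10 ± 0.07 (adjusted p = 1.3e-12, 3 of 3 libraries). All 5 endothelial-like sub-clusters with at least 20 cells in every library held Csf2rb, from 149 ± 30.0 to 300.3 ± 27.4, the highest being the venule-type one led by Glycam1, Vwf, Ackr1 and Selp.

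In the mouse a near-identical neighbour, Csf2rb2, encodes a chain used by the interleukin-3 receptor, and reads may be split between the 2 genes, so both levels are uncertain. Csf2rb2 was itself highest in endothelial-like cells, at 72.5 ± 12.2 CPM, against 42.3 ± 6.6 in infiltrating monocyte-like cells (SD, n = 3). It did not differ by call between neutrophil-like and monocyte/macrophage-like cells (0.11 ± 0.10 log2 units, SE, adjusted p = 0.32, with a CPM lower in 3 of 3 libraries). Il3ra, the interleukin-3 binding chain, was lower in neutrophil-like (9.24 ± 1.3 CPM) than in monocyte/macrophage-like cells (34.3 ± 5.38), with a log2 difference of -1.47 ± 0.17 (adjusted p = 2.2e-05).

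When each cell was thinned to 1000 UMIs so that depth was equal, 21.3 ± 0.56% of endothelial-like cells had Csf2rb alone and 0.32 ± 0.12% had both chains. Mature neutrophil-like cells had both in 6.02 ± 1.35%, Csf2ra alone in 9.4% and Csf2rb alone in 31.8%. Infiltrating monocyte-like cells had both in 4.98 ± 1.5%, Csf2ra alone in 12.7% and Csf2rb alone in 21.7%. The product of the shares with each chain was 0.42% in endothelial-like, 5.88% in mature neutrophil-like and 4.78% in infiltrating monocyte-like cells. Unthinned, both chains were seen in 23.8 ± 0.93% of endothelial-like, 17.3 ± 0.51% of mature neutrophil-like and 50.4 ± 3.68% of infiltrating monocyte-like cells, classes that differ in depth.

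**Figure D4:**
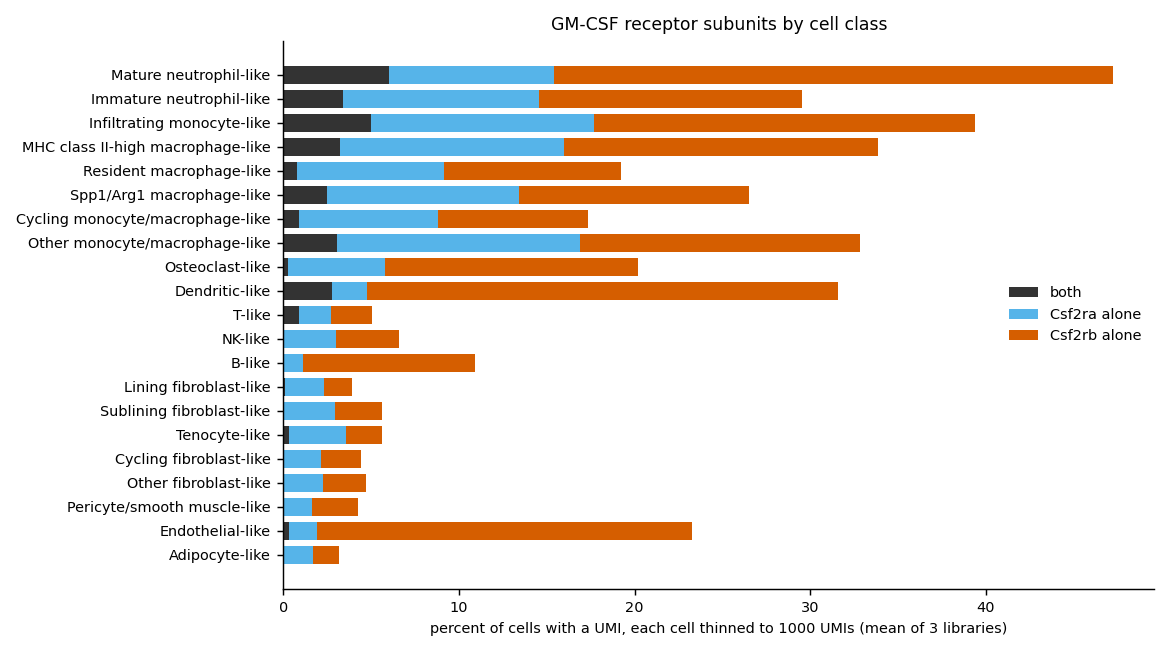
Percent of cells (horizontal axis) with a UMI of both GM-CSF receptor chains, of Csf2ra alone or of Csf2rb alone in 21 classes, each cell thinned to 1000 UMIs, as means of 3 libraries. Endothelial-like cells show Csf2rb alone in 21.3% and both in 0.32%, while mature neutrophil-like and infiltrating monocyte-like cells show all 3 states.

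Csf3 was found at trace levels in stroma. The libraries held 124, 230 and 101 Csf3 UMIs, with 120, 209 and 95 in analysed cells. Other fibroblast-like cells, those in neither a lining, sublining, tenocyte nor cycling class, had 3.37, 6.08 and 2.38 CPM, and endothelial-like cells 3.18, 1.95 and 1.68. Lining fibroblast-like cells had 0.69, 5.6 and 0.43, and 17 of the 44 UMIs of replicate 2 came from 1 cell. Fibroblast-like cells together held 69.9 ± 10.9% of the Csf3 UMIs and endothelial-like cells 14.2 ± 7.3%.

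Fibroblast-like cells were called above monocyte/macrophage-like cells for Csf3, by 3.17 ± 0.30 log2 units (SE, edgeR adjusted p = 2.2e-06, 3 of 3 libraries), on 305 against 24 UMIs. The difference from endothelial-like cells was not called (0.41 ± 0.32, adjusted p = 0.28). Neutrophil-like cells were also called above monocyte/macrophage-like cells (1.77 ± 0.46, adjusted p = 0.0051), but on 23 UMIs at 0.72, 0.90 and 0.59 CPM, where free RNA alone allows up to 0.52 in mature cells, which had 0.68, 1.15 and 0.62. Within endothelium, the Glycam1, Ackr1 and Selp sub-cluster had 10.3, 5.12 and 4.76 CPM of Csf3 (mean 6.73), and the other 4 had 0 to 0.93 on average. Means of 21 fibroblast-like sub-clusters ran from 0 to 10.6 ± 4.3 CPM (SD, n = 3), the highest being led by Cxcl13, Cxcl14 and H19.

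Csf3r lay mainly in neutrophils. Mature neutrophil-like cells had 1586, 1647 and 1553 CPM (1595 ± 47.6, SD, n = 3), with a UMI in 89.1% of cells, and immature neutrophil-like cells 351, 269 and 304. The 2 ranges were far apart, at -2.25 ± 0.17 log2 units for immature over mature (SE, adjusted p = 1.9e-22). Infiltrating monocyte-like cells had 135 ± 15.8, above their free RNA limit of 49.5, and the other monocyte/macrophage-like classes 51.4 to 87.5. B-like cells had 48.7, 93.9 and 267.6 in 25 to 30 cells per library, with neutrophil S100a8 and S100a9 UMIs high enough to set the free RNA share at up to 100%, so this class is not read further. Neutrophil-like cells held 68.7 ± 6.8% of the Csf3r UMIs.

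Csf3r was 4.19 ± 0.11 log2 units higher in neutrophil-like than in monocyte/macrophage-like cells (SE, adjusted p = 9.4e-10) and, like Csf2rb, higher in infiltrating monocyte-like than in other macrophage-like cells by 0.62 ± 0.06 (adjusted p = 4.3e-07), in 3 of 3 libraries but under the fold cutoff. Across the same 27 neutrophil-like sub-clusters Csf3r ranged from 347 ± 48.6 to 2243 ± 370 CPM. The sub-cluster of highest Csf1 had 1587 CPM of Csf3r, near the class mean.

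**Figure D5:**
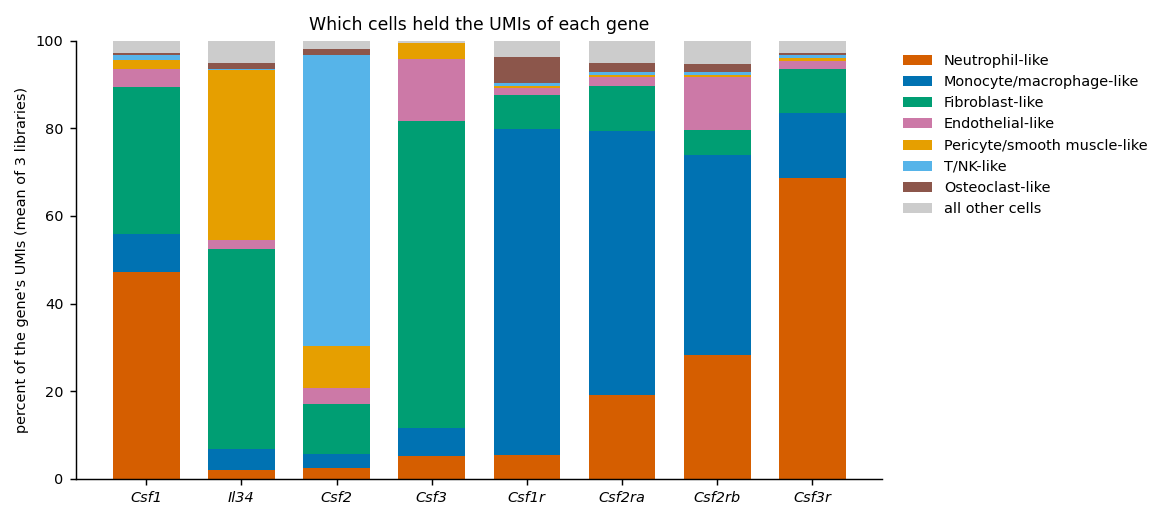
Percent of the UMIs of each gene in analysed cells (vertical axis, 0 to 100) held by 7 cell classes and all other cells, as means of 3 libraries. Neutrophil-like cells hold 47.3% of Csf1 and 68.7% of Csf3r, T/NK-like cells 66.5% of Csf2, fibroblast-like cells 69.9% of Csf3, and pericyte/smooth muscle-like cells 38.7% of Il34.

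Genes of the surrounding pathway followed 6 lists. In neutrophil-like over monocyte/macrophage-like cells, 9 of 16 kinases and signal carriers were called higher and none lower, with a list median of 1.16 log2 units against 0.00 for all genes. The largest was Syk, a tyrosine kinase of immune receptors, at 2.29 ± 0.09 (SE, adjusted p = 9.9e-09), with 672 ± 44.7 against 178 ± 18.4 CPM (SD, n = 3). Of 13 feedback and response genes 8 were higher and 2 lower, led by the kinase Pim1 (2.92 ± 0.10) and, downward, by the Ras inhibitor Spred1 (-1.89 ± 0.12). Of 13 inducing cytokines and receptors tested, 10 were higher and 1 lower, led by Il23a (4.28 ± 0.17), a subunit of interleukin-23, and by the interferon-γ receptor Ifngr1 (-1.05 ± 0.10).

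The transcription factor list was split, with 5 higher and 6 lower of 14 in the same comparison. Cebpe, a granulocyte factor, was at 4.18 ± 0.24 log2 units, but it was among the markers that named the classes. Of 10 macrophage genes of GM-CSF and M-CSF response, 5 were lower and 1 higher. Arg1, likewise among the naming markers, was at -4.12 ± 0.12, with 837 ± 563 CPM in monocyte/macrophage-like cells. The tetraspanin Cd9 was at 2.40 ± 0.11. Of 7 receptor relatives tested, 1 was higher and 2 lower. The share of all genes called in this comparison was 21.5% higher and 22.7% lower.

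In fibroblast-like over monocyte/macrophage-like cells more members were lower than higher in each of the 6 lists. Receptor relatives were lower for 3 and higher for 2 of 7. Kinases and signal carriers were lower for 10 of 16 and higher for 1, transcription factors lower for 10 of 14, response genes of macrophages lower for 7 of 10, and feedback genes lower for 6 and higher for 2 of 13. Inducing cytokines and receptors were lower for 8 and higher for 2 of 13, against 19.2% of all genes lower and 23.5% higher. Among the named genes, Il17rc, part of the interleukin-17 receptor, was at 4.16 ± 0.10 log2 units, Sdc1 at 2.57 ± 0.09, Socs2 at 2.23 ± 0.15 and Shc1 at 1.08 ± 0.07 (SE, all edgeR adjusted p under the 0.05 threshold). Downward, Ptpn6 was at -3.50 ± 0.08, Irf8 at -3.60 ± 0.07, Arg1, a naming marker, at -4.61 ± 0.10 and Tnf at -2.21 ± 0.07.

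The genes most alike in pattern were taken as the 3 of highest Pearson r with each member over the 21 class means, among 6637 genes. These values describe classes that share libraries and depth. Csf1 was most like F3 (tissue factor, r = 0.879), Tnfrsf23 and Isg20, and Csf3r most like Slc7a11 (0.979), Ccl3 and Gm5483. Csf1r was most like the macrophage marker Cd68 (0.977), Atp13a2 and Atp6v0b, and Il34 like Rasl11a (0.881), Sema5a and the endothelin receptor Ednra. Csf2ra was most like Pira2 (0.965), Arl11 and Mefv, Csf2rb like Dazap2 (0.935), Zfp710 and Sat1, Csf2 like Tff1 (0.907), Actn2 and Foxp3, and Csf3 like Cdr2l (0.812), Plat and Eml1. The match of Csf2 with Foxp3 is one between classes, since the Foxp3-led sub-cluster held 2.02% of the T-like Csf2 UMIs.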

How the data were processed

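Single-cell RNA-seq of 3 libraries was analysed from the deposited whole-number UMI count matrices, which per the file headers came from PISA 1.0. Named in the submitters' processing notes are Seurat 3.0.2, R 3.6 and the mouse build GRCm39 (mm39). For the aligner and the annotation, the sources used here give no name. The labels state 11111, 10668 and 14363 filtered cells for replicates 1 to 3, and the matrices hold 11939, 11602 and 15263 barcodes. No filter rule is stated. Every barcode has at least 1000 UMIs. Barcode names are running labels and cannot show cells shared between libraries.

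Cells with fewer than 200 genes or over 20% mitochondrial UMIs (82) and those with a Scrublet score above 0.2 (1847) were left out. Automatic thresholds marked 410, 0 and 1266. Cells were clustered with scanpy 1.11.5 (2000 variable genes without the members and pathway genes, 30 components, Leiden resolution 2, seed 1, sub-clusters at 0.5), named from marker lists and gated on UMIs of at least 2 own markers, with 698 cells left unnamed. Members and lists were chosen with earlier results of these data known, and naming rules and the doublet threshold after seeing the clusters. Trac, Trbc2, Il3 and Cebpd were not analysed here.

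UMIs were summed per library and class and tested with edgeR 4.0.16 (quasi-likelihood, TMM scaling, filterByExpr, library as block because both classes come from the same mice), two-sided, with Benjamini-Hochberg adjustment over all genes tested. Genes were called at adjusted p under 0.05 and an absolute log2 difference of at least 1. Values of n = 3 are libraries of 2 pooled mice each. The test was also tried on simulated data. Alternatives are given in the closing section. The genes named are the 8 members, the called gene of largest difference in each direction of each pathway list in 2 comparisons (at least 10 CPM), and 3 genes most alike to each member (at least 50 CPM in a class). Some genes that this rule names are not reported here. Sub-clusters, Csf2rb2 and cells of extreme UMI counts were chosen after their values were seen.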

Additional observations from a re-analysis of the deposited data

How the results depend on the processing

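Without the library as a replicate block, edgeR called 6231 genes in place of 6256 for neutrophil over monocyte/macrophage, 6585 in place of 6628 for fibroblast over monocyte/macrophage and 2375 in place of 2270 for immature over mature neutrophil. No count of called genes moved by over 1.5 times with this or with DESeq2 1.42.0. Thinning every cell to 1000 UMIs, with fewer genes tested, gave 2579 called genes in place of 4259 for fibroblast over endothelial, 647 in place of 1728 for lining over sublining fibroblast, 518 in place of 869 for infiltrating monocyte over other macrophage, 1492 in place of 2270 for immature over mature neutrophil, 664 in place of 1543 for dendritic and 1980 in place of 3782 for osteoclast over monocyte/macrophage. With thinning, the higher share of called genes went from 42.4% to 27.3% for dendritic and from 39.96% to 29.6% for immature over mature neutrophil. Subtracting free RNA gave 1350 in place of 869 for infiltrating monocyte over other macrophage. Leaving out 1 library gave 1569 to 2483 genes for immature over mature neutrophil, the lowest without replicate 2, which held most immature cells.

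Of 615 alternative values of member differences, 561 kept direction and side of the threshold, 10 lost the call, 20 gained it and 24 changed sign, all 24 of differences not called at first. The calls lost were of Csf3r in T/NK (-0.95 without replicate 2, -0.58 with doublets kept, -0.96 without the cell gate), dendritic (-0.95 without replicate 3, -0.92 without the gate) and osteoclast over monocyte/macrophage (-0.86 without replicate 3, -0.85 with doublets kept), of Csf2ra in osteoclast over monocyte/macrophage (-0.96 without replicate 3, -0.98 with doublets kept) and of Csf2rb in immature over mature neutrophil (-0.98 with coarser clusters). Fibroblast over endothelial Csf1 was called in 7 alternatives, at 1.00 to 1.44. Sign changes in log2 units, with the cause not tested, were as follows. Leaving out a library gave -0.27 to 0.90 for Csf3 in fibroblast over endothelial, -0.87 to 0.027 for Il34 in T/NK over monocyte/macrophage, -0.0416 to 0.42 for Il34 and -0.12 to 0.18 for Csf1r in lining over sublining fibroblast, -0.10 to 0.27 for Csf1, -0.15 to 0.30 for Il34 and -0.0361 to 0.0247 for Csf1r in infiltrating monocyte over other macrophage, and -0.0187 to 0.33 for Csf2rb in dendritic over monocyte/macrophage. Keeping doublets gave -0.0411 for Csf1r in fibroblast over endothelial, 0.0192 for Il34 in T/NK over monocyte/macrophage, and -0.0369 for Il34, 0.0342 for Csf2ra, 0.15 for Csf2rb and 0.13 for Csf3r in lining over sublining fibroblast. Thinning gave -0.155 for Csf1r in fibroblast over endothelial, -0.197 for Csf1r in lining over sublining fibroblast, and 0.17 and 0.0959 for Csf1 in dendritic and osteoclast over monocyte/macrophage. Subtracting free RNA gave -0.33 for Csf1r and -0.0778 for Csf3r in fibroblast over endothelial, 0.78 for Csf3r in lining over sublining fibroblast, and -0.215 for Csf1 and 0.0165 for Csf1r in infiltrating monocyte over other macrophage. Coarser clusters gave -0.0235 for Il34 in the latter.

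Without the top cell of each library, a setting added after seeing the data, Csf2 fell from 22.9 to 12.9 CPM in T-like cells, so single cells carry much of this value. The same setting gave 0.14 in place of 2.73 for Csf2 in pericyte/smooth muscle-like cells. Csf2 in T-like cells was 15.7 with thinning and 30.3 with free RNA subtracted.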
